A study of Sus scrofa with 4 samples.

Results

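Hemidesmosomes are the rivets that hold basal keratinocytes to the basement membrane. Inside the cell, plectin (PLEC) and the epithelial form of dystonin (DST, BP230) connect keratin filaments to the plaque. Across the membrane run the laminin receptor integrin α6β4 (ITGA6 and ITGB4), the transmembrane collagen XVII (COL17A1, BP180) and the tetraspanin CD151, which travels with laminin-binding integrins. Below the basement membrane, anchoring fibrils of collagen VII (COL7A1) loop into the dermis. These genes are known for skin blistering when they are lost, and collagen XVII and integrin α6 are also familiar markers of the follicle bulge and the basal layer in mice.

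The members were the 7 rows of the count table with these gene names, out of 29837 named genes, and all 7 were among the 15980 genes that passed a filter on low counts and were tested. The libraries came from FACS sorted epidermal cells of 2 juvenile pigs, 88R and 95R, with 1 LGR5-high (GFP-hi) and 1 LGR5-negative (GFP-neg) library from each pig. Both pigs are transgenic, with H2B-GFP placed in exon 1 of 1 LGR5 allele and the other allele left intact, in a line that was founded from clonal edited fibroblasts by nuclear transfer. GFP therefore reports the LGR5 promoter, and because histone-bound GFP is only diluted by division, it can outlast the transcript. Skin was treated with Dispase II, hair and epidermis were pulled from the dermis, and the cells were freed with trypsin, so the basal cells had been detached from their basement membrane. Whether these pigs were founders or progeny is not given, and the LGR5-negative sort mixes epidermal cell types. Cells with low GFP were gated apart in the study's sorts, and no library of them was analysed here. No wild-type animal was part of the comparison.

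The libraries held between 30696803 and 32463362 counts on named genes. LGR5 itself had 4551 counts in the LGR5-high library of pig 88R against 36 in its LGR5-negative library, and 6224 against 109 in pig 95R. Of 6 follicle stem cell and outer root sheath markers, 5 were higher in LGR5-high, and their summed level was 1639 to 1648 CPM (library-scaled counts, with TMM, the trimmed mean of M-values, as the scaling) against 122 to 153 CPM. LGR5, whose reporter was used for the sort, is counted among the 5 and in the sums, with means of 160 and 2.43 CPM. Of 7 suprabasal markers tested, 6 were lower, with a summed level of 5502 to 6044 CPM against 56319 to 65559 CPM. The basal keratin gene KRT5 had 24564 ± 1291 CPM against 27828 ± 2424 CPM (LGR5-high first, SD, n = 2 pigs in each), and its log2 fold change of -0.18 (0.04 with library size only) did not pass the test (adjusted p = 0.265, edgeR). TP63, the master regulator of the basal layer, had a log2 fold change of -0.17 (adjusted p = 0.135, edgeR). A basal keratin symbol, KRT14, was not analysed here.

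Of the 7 members, 6 were lower in LGR5-high cells and CD151 was higher. These calls were made by edgeR's quasi-likelihood test on the raw counts, at a Benjamini-Hochberg adjusted p under 0.05 over all 15980 genes. Among all tested genes 22.0% were called lower and 22.7% higher. COL7A1 was 2.12-fold lower, ITGA6 1.92-fold and DST 1.65-fold, whereas COL17A1, ITGB4 and PLEC were 1.38-fold, 1.31-fold and 1.29-fold lower. CD151 was 1.77-fold higher. The median log2 fold change of the 7 members was -0.47, beside 0.02 over all tested genes, and the medians within pigs 88R and 95R were -0.49 and -0.47. For none of the 7 did the CPM of the populations overlap, which was also true of 76.6% of all tested genes.

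**Figure D1:**
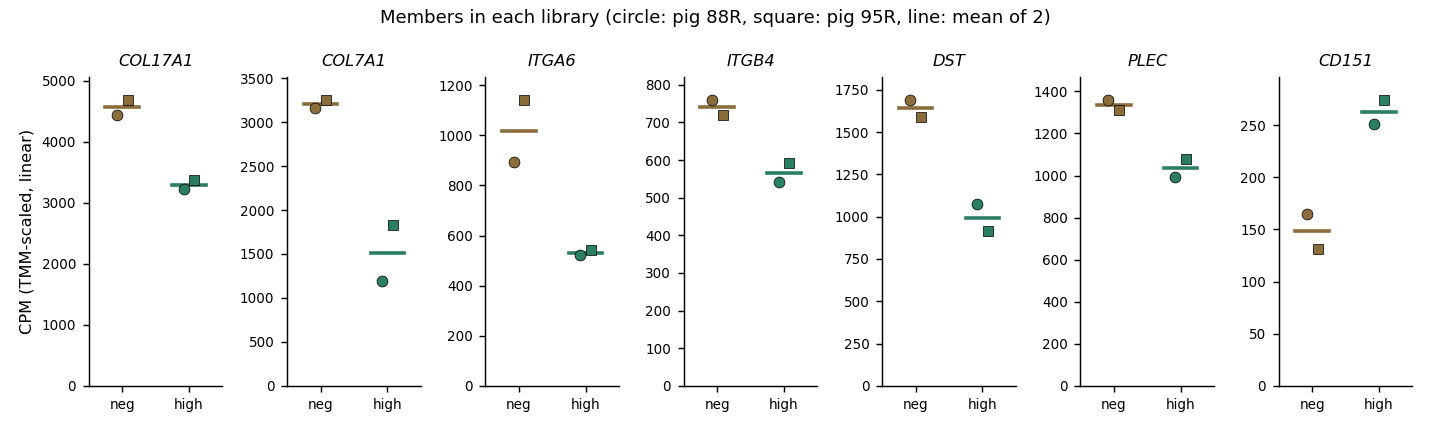
Level of each member in the 4 libraries, in TMM-scaled CPM on linear axes that start at 0 (neg: LGR5-negative, high: LGR5-high; circle: pig 88R, square: pig 95R; line: mean of the 2 pigs). The LGR5-high libraries lie below both LGR5-negative libraries for 6 genes and above them for CD151. Levels are not comparable between genes, since they are not divided by transcript length.

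COL7A1 encodes the only chain of collagen VII and so the whole of the anchoring fibril. Its level was 1197 CPM in the LGR5-high library of pig 88R beside 3160 CPM in its LGR5-negative library, and 1834 beside 3252 CPM in pig 95R. The LGR5-negative libraries were nearly alike, 0.04 apart on the log2 scale, and the LGR5-high libraries were 0.62 apart, with pig 88R the lower. The log2 fold change was -1.08 (standard error 0.202, 95% interval -1.58 to -0.58, adjusted p = 0.0081 from edgeR), and the differences within the pigs were -1.40 in 88R and -0.83 in 95R. Of the 7 members COL7A1 had the lowest fold change, at percentile 9.58 of all tested genes, and also the widest interval. Leaving out the LGR5-high library of pig 88R or of pig 95R moved its log2 fold change to -0.81 or -1.42. With 1 library left out, the spread comes from the other population alone, and the lone library is assumed to vary like it.

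ITGA6 is the α subunit of the hemidesmosomal laminin receptor and also pairs with the β1 subunit. It had 521 CPM in the LGR5-high library of pig 88R beside 894 CPM in its LGR5-negative library, and 541 beside 1141 CPM in pig 95R. For this gene the LGR5-high libraries were close together and the LGR5-negative libraries differed, by 0.35 on the log2 scale. The log2 fold change was -0.94 (standard error 0.131, 95% interval -1.26 to -0.61, adjusted p = 0.00289 from edgeR), with -0.78 within pig 88R and -1.08 within pig 95R.

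ITGB4, the β subunit with the long cytoplasmic tail that binds plectin, had 542 CPM in the LGR5-high library of pig 88R beside 760 CPM in its LGR5-negative library, and 592 beside 721 CPM in pig 95R. Its populations were separated, but by less than those of its partner subunit. The log2 fold change was -0.38 (standard error 0.0882, 95% interval -0.60 to -0.17, adjusted p = 0.0164 from edgeR), with -0.49 within pig 88R and -0.28 within pig 95R.

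COL17A1 anchors the cell through its extracellular collagen stalk. It had 3217 CPM in the LGR5-high library of pig 88R beside 4438 CPM in its LGR5-negative library, and 3371 beside 4682 CPM in pig 95R. The decrease was the most even of the 7 between the animals, with log2 differences of -0.46 and -0.47. The log2 fold change was -0.47 (standard error 0.0919, 95% interval -0.70 to -0.24, adjusted p = 0.0096 from edgeR).

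DST had 1074 CPM in the LGR5-high library of pig 88R beside 1689 CPM in its LGR5-negative library, and 913 beside 1589 CPM in pig 95R. Both LGR5-high libraries lay far below the LGR5-negative ones, and the log2 fold change was -0.72 (standard error 0.109, 95% interval -0.99 to -0.45, adjusted p = 0.00386 from edgeR). The gene makes the epithelial BP230 and longer cytoskeletal linkers of nerve and muscle from the same locus, and counts per gene do not tell these forms apart.

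PLEC, the other plakin of the plaque, had 992 CPM in the LGR5-high library of pig 88R beside 1359 CPM in its LGR5-negative library, and 1079 beside 1311 CPM in pig 95R. Its log2 fold change of -0.37 was the smallest in size of the 7 (standard error 0.0884, 95% interval -0.59 to -0.15, adjusted p = 0.0196 from edgeR), with -0.45 within pig 88R and -0.28 within pig 95R. PLEC also has alternative first exons whose products bind different sites in the cell, and these too are summed in the table.

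CD151, the tetraspanin, was the exception in direction. It had 251 CPM in the LGR5-high library of pig 88R beside 165 CPM in its LGR5-negative library, and 274 beside 132 CPM in pig 95R. Pig 95R showed the larger gap, with a log2 difference of 1.06 against 0.61 in pig 88R. The log2 fold change was 0.82 (standard error 0.126, 95% interval 0.51 to 1.14, adjusted p = 0.00403 from edgeR), at percentile 80.6 of all tested genes. With the fewest reads of the 7, CD151 still had 3982 counts in its lowest library, so that counting error was at most 1.58% for any member and the spread between pigs was the larger source of error.

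**Figure D2:**
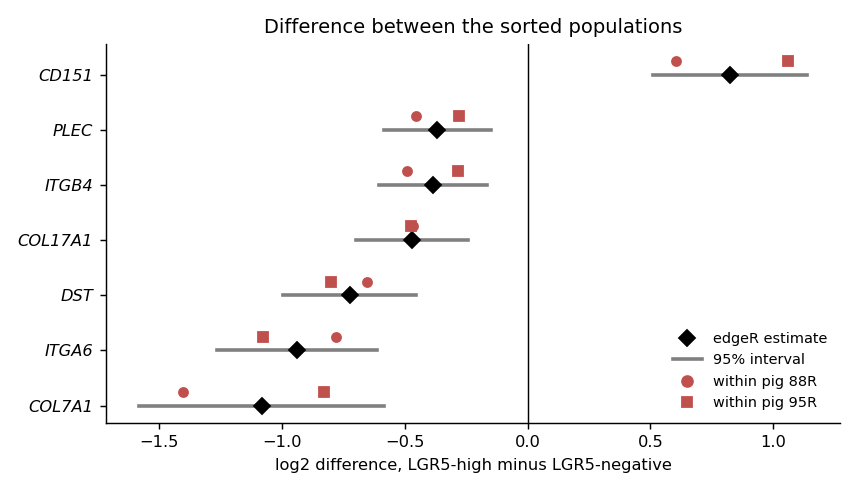
Log2 difference between LGR5-high and LGR5-negative for each member, as the edgeR estimate (diamond) with its 95% interval (bar) and the difference within each pig (circle: 88R, square: 95R). All intervals lie on one side of 0, from -1.08 for COL7A1 to 0.82 for CD151, and both pigs lie on the same side for every gene.

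In bulk RNA, fewer cells that carry a transcript and less of the transcript per cell cannot be told apart. The 6 decreases stood beside a far higher level of suprabasal markers in LGR5-negative, given above, and beside lower melanocyte and Langerhans markers in LGR5-high. Of 7 melanocyte markers, 5 were lower and the summed level was 62.5 to 62.6 CPM in LGR5-high against 85.0 to 261 CPM. PMEL lost its call without the LGR5-high library of pig 95R, SOX10 without that of pig 88R, and MLANA and TYR without either. With the replicate block 6 were lower and MITF was higher. Of 6 Langerhans and myeloid markers, 4 were lower and the summed level was 17.5 to 18.2 CPM against 155 to 167 CPM. CD14, 1 of the 4, lost its call without either LGR5-high library. Fibroblast markers were split, with 4 lower of 6 and 2 higher (COL1A1 and FBLN1, named after their values were seen), and sums of 253 to 471 CPM in LGR5-high against 231 to 353 CPM. The call of COL1A1 was lost without either library of pig 95R and by DESeq2 with or without the block. That of PDGFRA, which was lower, was lost without either LGR5-high library and by DESeq2 with the block. Endothelial markers were lower for 4 of 5 tested, with sums of 6.28 to 7.56 CPM against 20.7 to 20.9 CPM. CLDN5 lost its call by DESeq2 with or without the block and without any 1 library. TEK lost it with library size only and without either library of pig 88R or the LGR5-high library of pig 95R. None of the 5 T cell markers had enough counts to be tested, and they summed to at most 0.43 CPM in any library. CD3E, CD3D, CD3G and CD2 had 0 counts in both LGR5-high libraries and 0 to 4 in LGR5-negative. CD8A had 1 and 5 counts in LGR5-high and 1 and 2 in LGR5-negative. Of 6 inner root sheath and hair shaft markers, KRT25, KRT27, KRT28 and TCHH were higher in LGR5-high, and KRT31 and KRT35 were lower. Their summed level was 939 to 1259 CPM in LGR5-high against 376 to 457 CPM. Over all tested genes 22.0% were called lower and 22.7% higher, and 27.2% and 28.5% with the replicate block. The part of all these cell types in the decreases was not tested.

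The changes were uneven between members that work as partners, and ratios of counts within a library show this without any scaling between libraries. The log2 ratio of ITGA6 to ITGB4 was -0.05 against 0.23 in pig 88R and -0.13 against 0.66 in pig 95R, LGR5-high first. The populations did not overlap, and LGR5-high cells had less α6 transcript for each β4 transcript, by 0.29 in 88R and 0.79 in 95R on the log2 scale. The log2 ratio of COL17A1 to COL7A1 was 1.15 ± 0.388 in LGR5-high and 0.51 ± 0.0254 in LGR5-negative (SD, n = 2 pigs in each). The ratio of PLEC to DST was higher in LGR5-high by 0.36 on the log2 scale (0.20 in 88R, 0.52 in 95R). The widest shift was that of CD151 to ITGA6, higher in LGR5-high by 1.76 on the log2 scale (1.38 in 88R, 2.14 in 95R).

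**Figure D3:**
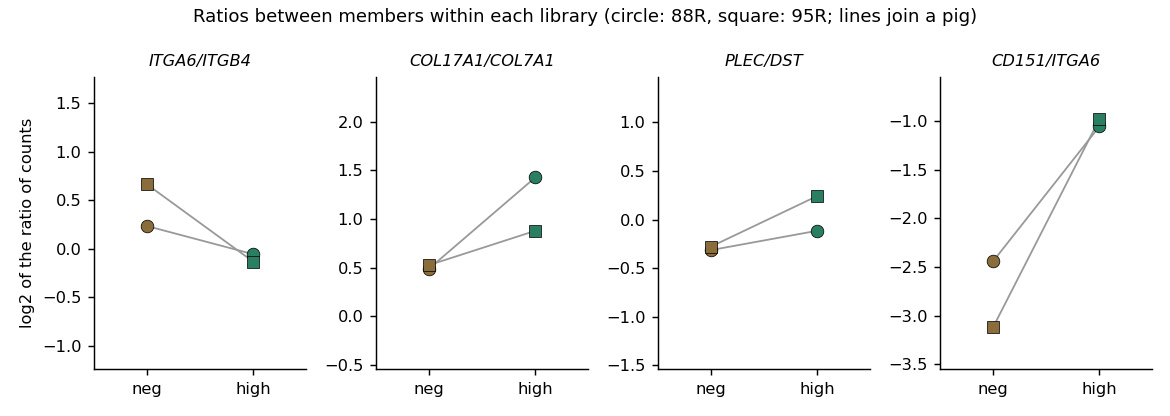
Log2 ratio of the counts of 2 members within each library (neg: LGR5-negative, high: LGR5-high; circle: pig 88R, square: pig 95R; lines join the libraries of a pig; each panel spans the same range). The ITGA6/ITGB4 ratio was lower in LGR5-high in both pigs, and the other 3 ratios were higher.

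KRT5, whose change did not pass the test, served as a reference within each library. Its own log2 difference was -0.32 in 88R and -0.04 in 95R, so it was not shown to be constant. The log2 ratio to KRT5 was lower in LGR5-high by 0.94 for COL7A1, 0.75 for ITGA6 and 0.55 for DST, and by 0.29, 0.21 and 0.19 for COL17A1, ITGB4 and PLEC. That of CD151 was higher by 1.01 (0.93 in 88R, 1.09 in 95R). Within 88R and 95R the differences were -1.08 and -0.79 for COL7A1, -0.46 and -1.04 for ITGA6, and -0.33 and -0.76 for DST. For COL17A1, ITGB4 and PLEC they were -0.14 and -0.44, -0.17 and -0.25, and -0.13 and -0.25. Relative to subunits outside the hemidesmosome, ITGA6 fell against ITGA3 by 0.73 in 88R and 1.06 in 95R on the log2 scale, and ITGB4 fell against ITGB1 by 0.96 and 0.49. In all 13 ratios computed the populations did not overlap, as was true of the CPM of 76.6% of single tested genes. The ratios share genes, KRT5 among them, so they are not 13 separate results. The exact permutation test gave p = 0.333 for each (2-sided, 0.333 after Benjamini-Hochberg adjustment), the smallest p that 2 against 2 libraries allow.

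COL7A1, ITGA6, DST and CD151 were called under 13 of the 15 alternative settings. COL17A1 and ITGB4 were called under 10 and PLEC under 9, and each of the 7 kept its direction in all 15. Of the 15, 4 leave out 1 library, so that the spread is estimated from the other population alone. Scaled by library size alone, all tested genes had a median log2 fold change of 0.24, and the share of higher among all calls went from 50.9% to 70.2%. COL17A1, ITGB4 and PLEC then had log2 fold changes of -0.25, -0.16 and -0.14 (adjusted p = 0.061, 0.163 and 0.206 from edgeR), and COL7A1, ITGA6 and DST, 3 members, were called lower, beside 14.6% of all genes. PLEC also lost its call with upper quartile scaling (adjusted p = 0.0604 from edgeR). COL17A1, ITGB4 and PLEC lost their calls without the LGR5-high library of pig 88R (adjusted p = 0.071, 0.104 and 0.123 from edgeR) and without that of pig 95R (0.0557, 0.0523 and 0.0631), where 14.8% and 13.0% of all genes were called lower. Without the LGR5-negative library of pig 88R or of pig 95R, 17.8% and 18.1% of all genes were called lower and the 6 members with them. Under the replicate block by pig, the same 6 and 1 members were called, beside 27.2% of all genes lower and 28.5% higher. The methods' t-test called none of the members, beside 3.14% of all genes lower and 3.40% higher, and Bonferroni adjustment called none, beside 0.814% and 1.21%. Both were run here, and their calls are not the study's own. At an unadjusted p under 0.05, 5 members were lower and 1 was higher by the methods' t-test, beside 3129 and 3262 of all 15980 genes. By edgeR these were 6 and 1 members, beside 4185 and 4354 genes.

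**Figure D4:**
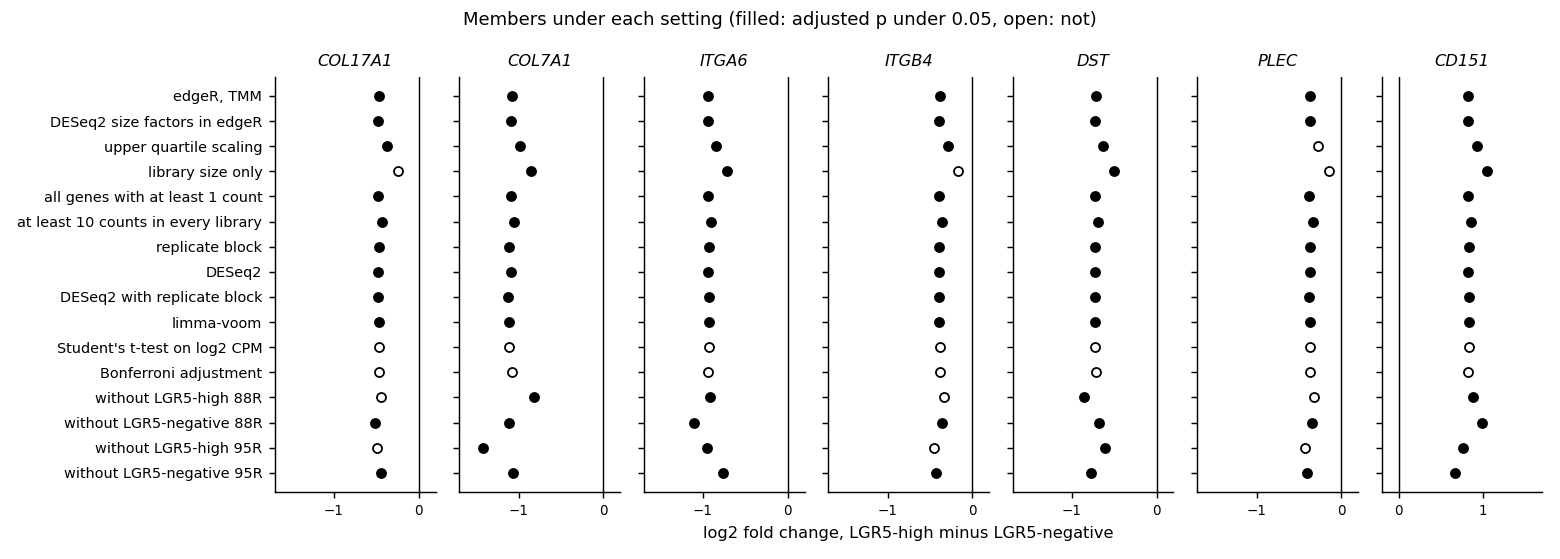
Log2 fold change of each member (horizontal axis) under edgeR with TMM and 15 other settings (rows), filled where the adjusted p was under 0.05 and open where it was not. COL7A1, ITGA6, DST and CD151 lost their calls under the methods' t-test and Bonferroni adjustment alone, and no gene crossed 0.

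Among themselves, ITGB4 and PLEC had the most similar profiles over the 4 libraries, with a Euclidean distance of 0.0257 between their centred log2 CPM. The farthest apart were COL7A1 and CD151, at 1.99. Outside the members, among 9282 genes with a symbol and a mean of at least 10 CPM, the nearest to COL7A1 was EDN1 (endothelin 1) at 0.100, followed by SLC5A9 at 0.147. NFKB1 (distance 0.0319), a subunit of the inflammatory transcription factor NF-κB, and RNF122 (0.0349) were nearest to ITGA6. ZNHIT3 was nearest to COL17A1, and C6H16orf70 and RNF19A were nearest to DST. ITGB4 had TCFL5 and GRHL1 as its nearest genes and PLEC had DAGLB and TCFL5. CD151 was nearest to HR, the hairless corepressor of the follicle, at 0.0716, and almost as near to VRK3, at 0.0735. These likenesses rest on 4 libraries and on the difference between the populations.

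The extracellular ligand of α6β4 is laminin-332, whose chain genes include LAMA3 and LAMB3. Of these and the genes of its other receptor, ITGA3 and ITGB1, 1 of 4 was lower and 1 was higher, with a median log2 fold change of 0.15. Over all tested genes 22.0% were called lower and 22.7% higher. LAMA3 was lower with a log2 fold change of -0.74 (218 ± 3.21 CPM against 365 ± 0.241 CPM, LGR5-high first, SD, n = 2, adjusted p = 8.60e-04 from edgeR). LAMB3 (0.33, adjusted p = 0.152) was not called by edgeR, and was called higher with the replicate block by pig (adjusted p = 0.00622 from edgeR). ITGA3 had a log2 fold change of -0.03 (adjusted p = 0.817 from edgeR). ITGB1 was higher, at 0.35 (adjusted p = 0.0323 from edgeR), but not without the LGR5-high or the LGR5-negative library of pig 88R or the LGR5-negative library of pig 95R.

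Plakins and tetraspanins outside the hemidesmosome moved in both directions. Of 4 other plakins, EVPL and PPL, which build the cornified envelope, were lower with log2 fold changes of -1.09 and -1.32. MACF1, the close relative of dystonin that links actin and microtubules, was higher, with 1219 ± 207 CPM against 402 ± 45.8 CPM (LGR5-high first, SD, n = 2) and a log2 fold change of 1.60 (adjusted p = 6.81e-04 from edgeR). The desmosomal plakin DSP had -0.18 (adjusted p = 0.158 from edgeR). Of 7 other tetraspanins, 3 were higher and 3 lower, beside 22.7% and 22.0% of all tested genes. CD81 was higher (log2 fold change 0.60) and TSPAN8 had 1823 and 1629 counts in LGR5-high against 12 and 11 in LGR5-negative, whereas TSPAN14 was lower (-0.69). CD82 was lower at -0.45, and not called with library size only, where its log2 fold change was -0.23. CD9 was lower at -0.39, and not called with library size only (-0.16). TSPAN4 was higher at 0.93, and not called by DESeq2 with the replicate block. CD9 and TSPAN4 each lost the call without the LGR5-high or the LGR5-negative library of pig 88R, or the LGR5-high library of pig 95R. The direction of CD151 was thus shared by some tetraspanins and not by others.

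Enzymes and matrix partners of the 2 collagens were also mixed. BMP1, the proteinase that trims procollagen VII, was higher, with 68.9 ± 2.46 CPM against 12.7 ± 5.18 CPM (LGR5-high first, SD, n = 2, log2 fold change 2.43, adjusted p = 0.0012 from edgeR). FREM2, a basement membrane protein of the Fraser complex, was lower at -1.30. The nidogen gene NID1 had 4 and 1 counts in LGR5-high and 50 and 63 in LGR5-negative, and was called lower. In all, 1 of the 8 tested genes of this list was higher and 2 were lower, beside 22.7% and 22.0% of all tested genes. With the replicate block 3 were higher (BMP1, FRAS1 and TGM2) and 3 lower (FREM2, NID1 and VWA2), beside 28.5% and 27.2%. FRAS1, TGM2 and VWA2 were not called by DESeq2 with the same block. Of the sheddases that release the collagen XVII ectodomain, ADAM17 was lower (-0.55, adjusted p = 0.00407), ADAM10 was higher (0.51, adjusted p = 0.0342) and ADAM9 was not called (0.30, adjusted p = 0.209), all from edgeR. ADAM10 was not called without the LGR5-high or the LGR5-negative library of pig 88R. COL23A1, the only other transmembrane collagen tested of 3, was higher with a log2 fold change of 3.26 from 13.0 ± 1.69 against 1.35 ± 0.474 CPM (SD, n = 2).

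**Figure D5:**
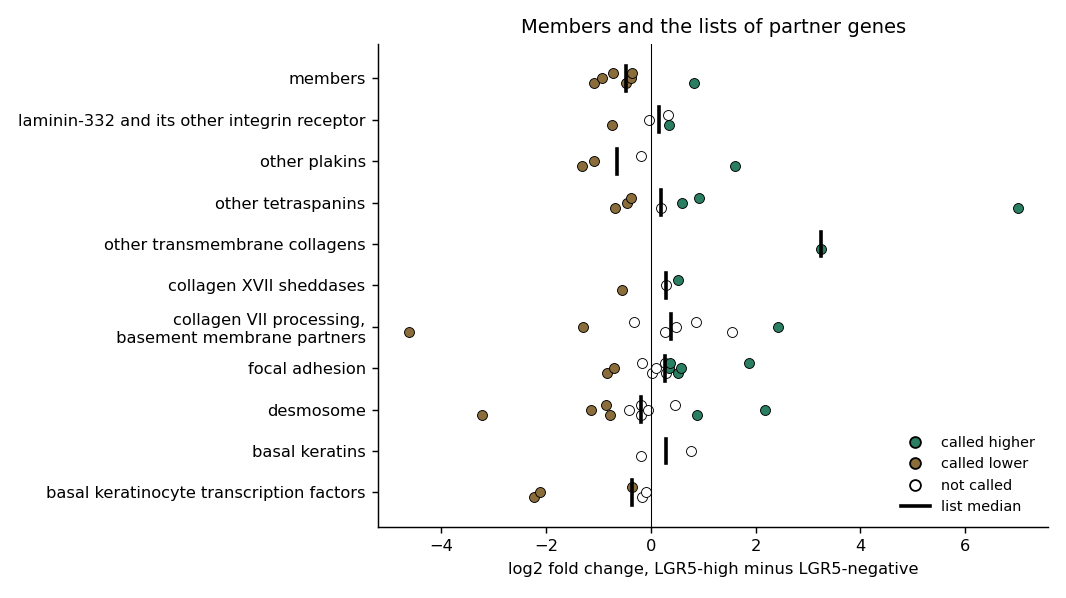
Log2 fold change of the members and of each list of partner genes (points: genes, green: called higher, brown: called lower, open: not called; black bar: list median). The members sit mostly to the left of 0, with a median of -0.47, while the partner lists hold genes on both sides, apart from the transmembrane collagens (1 gene, above 0) and the transcription factors (5 genes, below 0).

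Of the basal keratinocyte regulators TP63, TFAP2A, TFAP2C, KLF5 and GRHL2, 3 were lower and none was higher by edgeR. Over all tested genes 22.0% were called lower and 22.7% higher. TFAP2C and KLF5 had log2 fold changes of -2.24 and -2.12. TP63 and TFAP2A, at -0.17 and -0.09, were not called, and both turned to above 0 with library size only. GRHL2 was lower at -0.36 and lost its call with library size only and without the LGR5-negative library of pig 88R, the LGR5-high library of pig 95R or the LGR5-negative library of pig 95R.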

How the data were processed

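Poly(A)-selected paired-end libraries of sorted LGR5-high and LGR5-negative epidermal cells of 2 pigs were analysed. The deposited values are raw counts, unscaled, in 1 row per gene symbol, and the submitters' processing notes name Trimmomatic 0.36, STAR 2.5.2b, featureCounts and Subread 1.5.2. The genome build, annotation and strand setting are not given in the sources used here. Counts without a gene name (0.36% to 0.626% of a library) were left out. A gene with 3 counts had 0.0872 to 0.105 CPM, for counting error only.

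Counts were tested in R 4.3.3 with edgeR 4.0.16 (filterByExpr, minimum count 10 and minimum total 15, TMM, glmQLFTest with the population as the only term, 2-sided, Benjamini-Hochberg over 15980 genes). Standard errors came from the quasi-likelihood F statistic. Differences within a pig used a prior count of 2. Exact permutation tests used scipy 1.17.1, and plots used matplotlib 3.10.9. Some of the fits, but not all, were also run on simulated data, and the outcome of those runs is not reported here. Libraries of a pig come from the same animal, and the correlation of their deviations from population means was 0.370 over 15980 genes.

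The alternatives covered scaling (DESeq2 size factors, upper quartile, library size only), 2 other filters, the replicate block, DESeq2 1.42.0 with and without the block, limma-voom (limma 3.58.1), the Student's t-test named in the study's methods, here with log2 of CPM plus 1 and its Benjamini-Hochberg adjustment, Bonferroni adjustment, and leaving out each library. The study does not state which values its t-test used, and its results name a Bonferroni adjustment. Members, gene lists and tests were chosen with earlier results of these data known. Named genes are the members, list genes that were called or most abundant, and the 2 genes nearest to each member. Of these, 2 genes are not reported here, and the laminin-332 list was counted without 1 of them. None of the 7 members overlaps another gene in the RefSeq table of Sscrofa11.1, used for names and neighbours only. No transcript length or sequence was used here, so levels were not compared between genes.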

Additional observations from a re-analysis of the deposited data

How the results depend on the processing

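Over 15 alternative settings, the 7 log2 fold changes kept their direction in 105 of 105 values and their side of the threshold in 81. The replicate block (edgeR, pairing by pig) called the same 6 members lower and 1 higher, with 4342 lower and 4562 higher over all genes, and changed no member's call. With library size only, 3 members were called lower, with 5473 genes higher and 2328 lower over all genes, beside 3632 and 3508 with TMM. Student's t-test called 0 members lower and 0 higher, and 544 genes higher and 502 lower over all genes. At an unadjusted p under 0.05 it gave 5 members lower and 1 higher, beside 3129 genes lower and 3262 higher. Bonferroni adjustment of edgeR's p-values left 0 members lower and 0 higher, and 194 genes higher and 130 lower over all genes. Before adjustment, edgeR's p was under 0.05 for 6 members lower and 1 higher, beside 4185 genes lower and 4354 higher. Leaving out each library gave 3 to 6 lower members, 2279 to 3169 higher genes and 2139 to 3004 lower genes. The lowest counts of members came without the LGR5-high library of pig 88R or of 95R, where COL7A1, ITGA6 and DST were called lower. These fits set 1 library against 2, with the lone library assumed to vary like the other population. The cause of these shifts was not tested. With 2 pigs, an interaction of pig and population has no residual degrees of freedom, so differences between the pigs were not tested.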

Other observations

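Other adhesion structures of the same cells also held genes on both sides. Of 11 desmosome genes, which join keratinocytes to each other and share keratin as their anchor, 2 rose and 4 fell in LGR5-high by edgeR, with a median log2 fold change of -0.19. DSC2 and DSG3 were higher, at 2.19 and 0.87, and DSC1, DSG1, PKP1 and DSC3 were lower, at -3.22, -1.14, -0.86 and -0.78. Of 12 focal adhesion genes, which join integrins to actin rather than keratin, 5 were higher and 2 were lower, with a median of 0.28. Beside these 2 lists, 22.7% of all tested genes were called higher and 22.0% lower. TNS3 (log2 fold change 1.88) and PXN (0.58) were higher, and TNS1 (-0.83) and TNS4 (-0.71) were lower. VCL, ILK and LIMS1, at 0.52, 0.37 and 0.35, each lost the call without the LGR5-high library of pig 88R. ILK also lost it without the LGR5-high or the LGR5-negative library of pig 95R, and LIMS1 without the LGR5-negative library of pig 88R or the LGR5-high library of pig 95R and by DESeq2 with the replicate block.

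KRT15, a basal and bulge keratin, had 1115 and 2344 CPM in LGR5-high of pigs 88R and 95R and 715 and 1323 CPM in LGR5-negative. It was not called by edgeR (log2 fold change 0.76, adjusted p = 0.187) and was called higher with the pig as a replicate block (0.73, adjusted p = 2.13e-06). Of 4 nerve and Schwann markers tested, NGFR, NCAM1 and S100B were higher (named after their values were seen, the call of S100B being lost without the LGR5-high library of pig 95R). The inner root sheath genes KRT25, KRT27, KRT28 and TCHH were higher, with log2 fold changes of 3.53, 3.99, 2.70 and 4.00. The hair shaft keratins KRT31 and KRT35 were lower, at -1.04 and -2.40. KRT31 lost its call with library size only and without the LGR5-negative library of pig 88R or the LGR5-high library of pig 95R. Of 5 sebocyte markers, 3 had enough counts to be tested, and SCD and MGST1 were higher. FASN was not called, and PLIN1 and PPARG had at most 14 counts in any library. The summed level of the 5 was 970 to 1066 CPM in LGR5-high against 971 to 1027 CPM in LGR5-negative. For all marker lists, the shares over all tested genes were 22.7% higher and 22.0% lower.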
